A study of Mus musculus with 3 samples.

Results

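Nuclei rich in Hspa8, the transcript of the constitutive 70-kilodalton heat shock chaperone HSC70, made up 287 of the 9027 brain nuclei kept (3.18%, exact binomial 95% interval 2.83 to 3.56). This interval covers counting error only, and it pools 3 libraries whose shares ran from 1.52% to 5.38%. A nucleus was kept with at least 1000 detected genes and at most 5% of its UMIs (unique molecular identifiers, 1 per captured RNA molecule) on mitochondrial genes. It counted as Hspa8-high when Hspa8 reached 600 CPM (UMIs of the gene scaled to 1000000 UMIs of the nucleus) with at least 3 Hspa8 UMIs. Hspa8 lies on mouse chromosome 9 at chr9:40800984-40810087 (mm10, plus strand) and codes for a protein.

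The nuclei came from brains of uninjured C57BL/6 mice, in 3 libraries named as biological replicates 1 to 3 of that 1 group. Neurons carrying a fluorescent label taken up in the lumbar spinal cord were cut out of brain slices under a fluorescence stereomicroscope, frozen, and released as nuclei that were sorted by flow cytometry before droplet sequencing of nuclear RNA. The labels give no age, and all 3 libraries share the labelling, the dissection and the sort. There is no second condition, so the comparison below is between nuclei of the same library, and n = 3 counts libraries. The libraries held 27435221, 74287112 and 60490064 UMIs.

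Heat shock proteins of the HSP70 and HSP90 families bind unfolded stretches of other proteins and help them fold or be handed to the proteasome. HSP40 proteins deliver clients to HSP70, and exchange factors release them. When unfolded protein builds up, heat shock factors bind repeated GAA units in promoters and raise the inducible members such as Hspa1a and Hspa1b, while Hspa8 is present in most cells at rest and is abundant in neurons.

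The Hspa8-high nuclei were unevenly spread over libraries and were shallow. Replicate 1 held 144 of 2679 nuclei (5.38%, 4.55 to 6.30), replicate 2 held 42 of 2769 (1.52%, 1.10 to 2.04) and replicate 3 held 101 of 3579 (2.82%, 2.30 to 3.42), and these intervals, which do not overlap, cover counting error only. Their median depth was 3299, 6847 and 4613 UMIs in replicates 1, 2 and 3, against 8270, 19493 and 14388 UMIs over all nuclei kept. Between 2000 and 3000 UMIs, 26.3%, 6.58% and 44.1% of nuclei were Hspa8-high. Over 20000 UMIs, 0 of 251 nuclei in replicate 1, 0.368% in replicate 2 and 0.0951% in replicate 3 were. Below 5000 UMIs the limit of 3 UMIs stands above 600 CPM, so the depth of a nucleus sets how high its Hspa8 must be to count.

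**Figure D1:**
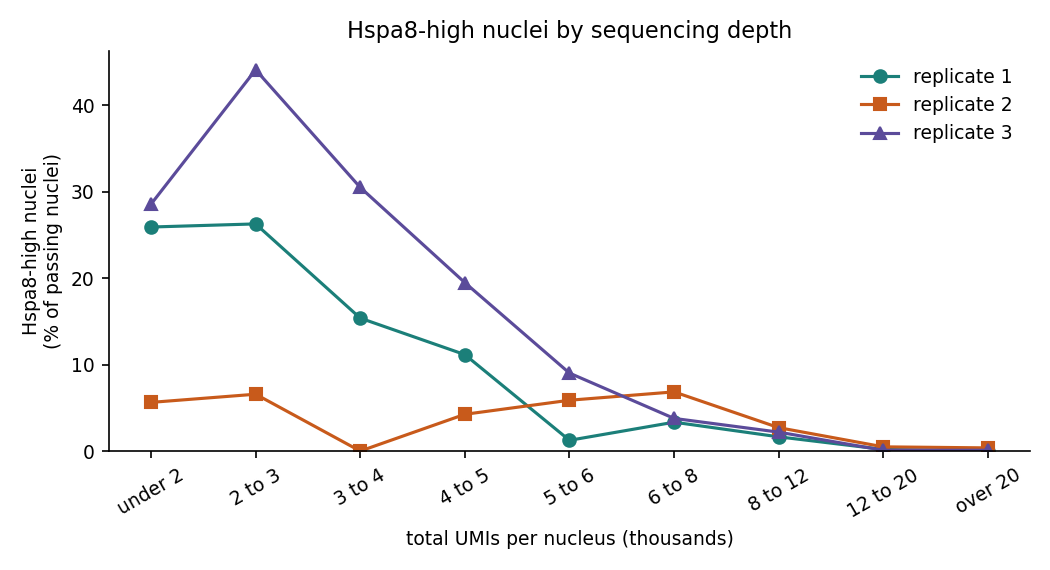
Share of nuclei kept that were Hspa8-high (percent, vertical axis) in 9 ranges of total UMIs per nucleus (horizontal axis), 1 line per library. Replicates 1 and 3 fell with depth, to 3.34% and 3.78% at 6000 to 8000 UMIs, while replicate 2 had no such slope below 8000 UMIs and stood at 6.85% there.

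The limit cut a continuous range of levels. In the group itself, 37 nuclei lay between 600 and 700 CPM, the lowest at 600.3 CPM, and 72 nuclei kept lay between 500 and 600 CPM, the highest at 598.8 CPM. Another 89 nuclei reached 600 CPM with fewer than 3 UMIs and were left out of both sides. Of the 287, 205 had 1000 CPM or more and 59 had exactly 3 Hspa8 UMIs. The median Hspa8 level per nucleus was 1470, 933.3 and 1501 CPM in replicates 1, 2 and 3, and the highest nucleus of each library stood at 8415, 3425 and 8073 CPM. These values chose the nuclei and are given as a description. Scrublet called 2 of the 287 (0.697%) doublets, against 144 of all nuclei kept (1.60%). Libraries 1 and 2 shared 10 barcodes, 1 and 3 shared 2, and 2 and 3 shared 8. Of these, 6 passed the limits in both libraries and 0 were Hspa8-high in both.

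When nuclei were clustered with Hspa8, every listed gene and the mitochondrial genes held out, 243 of the 287 (84.7%) fell in 2 of 24 clusters, called by their numbers 13 and 14. These clusters held 535 nuclei, 5.93% of all those kept. Cluster 14 held 175 Hspa8-high nuclei among its 244, and cluster 13 held 68 among 291. The libraries differed in how far this held. Replicate 1 had 138 of its Hspa8-high nuclei (95.8%) in the pair of clusters, replicate 3 had 88 (87.1%) and replicate 2 had only 17 (40.5%), with 25 elsewhere. Of those 25, 9 lay in cluster 12, whose median depth was 3917 UMIs. Scrublet called 93 of the 323 nuclei of cluster 12 doublets, though 0 of the Hspa8-high nuclei of replicate 2. Neither cluster is given a cell type name here.

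**Figure D2:**
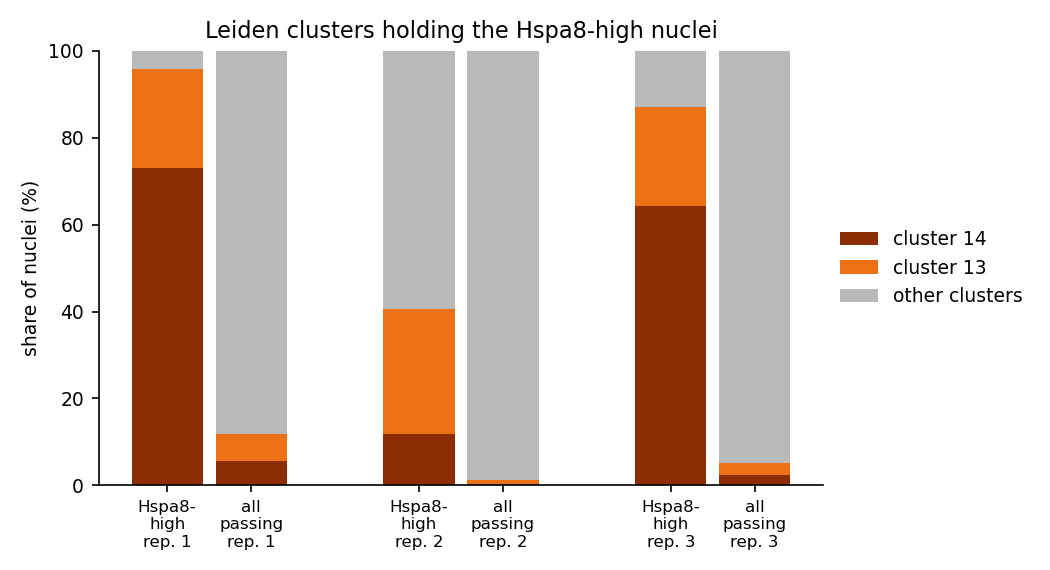
Share of nuclei (percent, vertical axis) in cluster 14, cluster 13 and the other clusters, for the Hspa8-high nuclei and for all nuclei kept, in each library. In replicate 2, 40.5% of the Hspa8-high nuclei lay in clusters 13 and 14, against 95.8% in replicate 1 and 87.1% in replicate 3.

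Depth was then held equal. The 221 Hspa8-high nuclei of 2000 to 8000 UMIs (119, 21 and 81 in replicates 1, 2 and 3) were each set beside 2 nuclei of the same library, under 600 CPM of Hspa8 and nearest in depth, 442 in all. Their median depths were 3309, 5959 and 4458 UMIs, against 3314, 5950 and 4442.5 UMIs in the depth-matched nuclei. UMIs were summed per library and side, Hspa8 was taken out of the table, and edgeR's quasi-likelihood test with the library as a block compared the sums over 7827 genes. In the summed nuclei Hspa8 itself stood at 1589, 1125 and 1748 CPM, against 107.7, 227.8 and 132.7 CPM, as the rule requires. The Hspa8-high sums held 446070, 111986 and 360426 UMIs, so 44.7 CPM in replicate 2 stood for only 5 UMIs.

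Under that test 1386 genes (17.7% of those tested) were higher in Hspa8-high nuclei and 1018 (13%) were lower, at a Benjamini-Hochberg adjusted p under 0.05. The median log2 difference over all genes tested was 0.0036. The 3 sums of either side did not overlap in 22.4% of genes with the Hspa8-high nuclei higher and in 14.3% with them lower. The count moved with the libraries: of 6677 genes tested without replicate 1, 506 were higher and 105 lower. Without replicate 2 it was 2568 and 2150 of 10263, and without replicate 3 it was 475 and 128 of 7026. Counts for the gene lists below are to be read beside these counts and shares over all genes. TMM factors lower each log2 difference by 0.227 relative to the ratio of CPM values taken over the tested genes only. CPM values printed here are taken over all UMIs of the summed nuclei. The offset of the log2 differences from their plain ratio is therefore not 0.227. Whether the replicates came from separate animals is not spelled out beyond the word biological in their names. With the library as a block, the p-values rest on how alike the difference between the sides was in these 3 libraries.

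The genes reported together with Hspa8 for these nuclei were chosen from earlier results of these data and are described with no test. They also count within the lists below, and without them the HSP70 list has 4 of 9 tested genes higher (median 0.67), the immediate early list 14 of 17 (median 2.66) and the histones 4 of 5. Hspa1a, an inducible HSP70 chaperone (chr17:34969190-34972156, minus strand), had 414.7, 259.0 and 1337 CPM in the Hspa8-high nuclei of replicates 1, 2 and 3, against 24.7, 4.47 and 12.2 CPM in the depth-matched nuclei. Gadd45b, induced by growth arrest and DNA damage, had 654.6, 339.3 and 1415 CPM, against 59.4, 35.7 and 44.7 CPM. Ccnb1ip1, a ubiquitin ligase needed for meiotic crossing over in mice, had 8411, 1509 and 4789 CPM, against 274.8, 120.6 and 272.3 CPM. In all 3 genes the lowest Hspa8-high value lay above the highest depth-matched value. Hist1h2bm, a replication-type histone H2B, had 1809, 80.4 and 1052 CPM, against 63.9, 4.47 and 36.6 CPM, and replicate 2 lay close to the depth-matched range. It belongs to a family of near-identical histone genes, and how the counting split their reads is uncertain.

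These genes were carried by many of the nuclei rather than a few. With every nucleus thinned to 2000 UMIs, Ccnb1ip1 was detected in 86.6%, 28.6% and 74.1% of Hspa8-high nuclei, against 18.9%, 9.52% and 4.94% of depth-matched nuclei. For Hspa1a the shares were 42.9%, 19.0% and 51.9%, against 3.78%, 0% and 1.24%, and without thinning 54.6%, 23.8% and 64.2%, against 5.46%, 2.38% and 2.47%. The 0% stands for 0 of 42 nuclei. Replicate 2 was again the lowest library, and Hist1h2bm was found in 0 of its 21 Hspa8-high nuclei after thinning.

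Within the HSP70 list, 14 genes beside Hspa8 were in the files, 10 were abundant enough to be tested, 5 were higher, 0 were lower, and the median log2 difference was 1.10. Hspa1b, the inducible neighbour of Hspa1a (chr17:34956436-34959238, minus strand), had 244.4, 53.6 and 627.0 CPM in Hspa8-high nuclei, against 10.1, 0 and 4.06 CPM, a log2 difference of 5.63 ± 0.52 (SE, edgeR adjusted p = 2.37e-05). All Hspa8-high values lay above all depth-matched values, though that of replicate 2 rested on 6 UMIs in 3 of its 21 nuclei. Hspa1a and Hspa1b are near-identical copies, so the split of reads between them is uncertain. Their promoters are shown because the pair moved together: the RefSeq windows (GRCm38.p6, minus strand, from 250 bases before to 50 after each start) had the same base at 296 of 300 positions, and each held 1 heat shock element pair, in capitals, at 104 bases before the start:
Hspa1a, chr17:34972233-34972280: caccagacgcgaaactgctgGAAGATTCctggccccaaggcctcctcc
Hspa1b, chr17:34959315-34959362: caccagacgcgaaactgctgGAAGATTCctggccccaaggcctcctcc

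Further HSP70 genes rose, among them some of the endoplasmic reticulum. Hspa5, which encodes the reticulum's HSP70 BiP, had 215.2, 133.9 and 488.3 CPM in Hspa8-high nuclei, against 33.7, 49.1 and 31.2 CPM (log2 difference 2.79 ± 0.41, edgeR adjusted p = 0.000426). Hyou1, another HSP70 of the reticulum, had 105.4, 53.6 and 66.6 CPM, against 11.2, 13.4 and 12.2 CPM (2.63 ± 0.40, edgeR adjusted p = 0.000492). Hsph1, an HSP110 that acts as an exchange factor, had 112.1, 98.2 and 166.5 CPM, against 41.5, 62.5 and 31.2 CPM (1.52 ± 0.35, edgeR adjusted p = 0.00658), and its call was lost without replicate 3. None of these genes overlapped between the sides, but Hspa5, Hyou1 and Hsph1 had 15, 6 and 11 UMIs in the Hspa8-high nuclei of replicate 2. The rise was not shared by every family member: Hspa4, a constitutive HSP110, had 121.1, 214.3 and 130.4 CPM, against 72.9, 160.8 and 107.0 CPM, with overlapping values, a log2 difference of 0.37 ± 0.28 and an edgeR adjusted p of 0.33.

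The HSP90 list had 14 of 15 genes tested, 5 higher and 0 lower (3 higher without replicate 1 and 2 without replicate 3), with a median log2 difference of 0.25. Hsp90ab1, the constitutive cytosolic HSP90, had 569.4, 616.1 and 1681 CPM in Hspa8-high nuclei, against 108.8, 214.4 and 162.5 CPM (2.35 ± 0.39, edgeR adjusted p = 0.00101). Hsp90aa1, the inducible form, had 464.1, 357.2 and 1282 CPM, against 92.0, 147.4 and 112.4 CPM (2.33 ± 0.42, edgeR adjusted p = 0.0015). Both forms lay apart from the depth-matched range in every library, with replicate 3 highest. Hsp90b1, the form of the endoplasmic reticulum, had 105.4, 160.7 and 277.4 CPM, against 51.6, 58.1 and 48.8 CPM (1.60 ± 0.34, edgeR adjusted p = 0.00443), and lost its call without replicate 3. The kinase-loading partner Cdc37 (1.45 ± 0.43, edgeR adjusted p = 0.0229) and Stip1, which bridges HSP70 and HSP90 (1.07 ± 0.32, edgeR adjusted p = 0.0238), lost theirs without replicate 1 and without replicate 3. In replicate 2 Cdc37 was lower in the Hspa8-high nuclei, at 35.7 CPM against 40.2 CPM, and its values overlapped between the sides.

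Among small heat shock proteins and chaperonins, 10 of 15 genes were tested, 4 were higher and 0 lower (2 higher without replicate 1 and 1 without replicate 3), and the median log2 difference was 0.60. Hspd1, the mitochondrial chaperonin HSP60, had 125.5, 116.1 and 227.5 CPM in Hspa8-high nuclei, against 29.2, 35.7 and 36.6 CPM, with no overlap (2.14 ± 0.32, edgeR adjusted p = 0.000414). Hspe1, which encodes its lid HSP10, had 20.2, 71.4 and 69.4 CPM, against 30.3, 84.9 and 54.2 CPM, with overlapping values (-0.18 ± 0.34, edgeR adjusted p = 0.712). The 2 genes lie head to head on chromosome 1 and share 1 stretch of promoter with a triple heat shock element, printed on each gene's own strand with the run of GAA and TTC units in capitals:
Hspd1, chr1:55088039-55088096, minus strand: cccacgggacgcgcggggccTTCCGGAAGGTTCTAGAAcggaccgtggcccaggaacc
Hspe1, chr1:55088039-55088096, plus strand: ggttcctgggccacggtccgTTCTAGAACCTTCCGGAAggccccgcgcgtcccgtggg

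The HSP40 list was mixed, with 14 of 18 genes tested, 4 higher, 2 lower and a median log2 difference of -0.27. Over all genes tested, 17.7% were higher and 13% lower. Without replicate 1 or without replicate 3 it had 2 higher and 0 lower, and without replicate 2 it had 7 higher and 4 lower. Dnajb11, an HSP40 of the endoplasmic reticulum, had 293.7, 71.4 and 66.6 CPM in Hspa8-high nuclei, against 21.3, 17.9 and 21.7 CPM (2.64 ± 0.44, edgeR adjusted p = 0.000893), although 5 nuclei carried 46.6% of its UMIs. Dnaja3, a mitochondrial HSP40, had 172.6, 71.4 and 152.6 CPM, against 48.2, 31.3 and 43.3 CPM (1.62 ± 0.30, edgeR adjusted p = 0.00205). The cytosolic Dnaja1 had 179.3, 151.8 and 283.0 CPM, against 62.8, 89.3 and 94.8 CPM (1.25 ± 0.30, edgeR adjusted p = 0.0078). Dnajb4 went the other way, with 40.4, 35.7 and 52.7 CPM, against 88.6, 107.2 and 94.8 CPM (-1.20 ± 0.32, edgeR adjusted p = 0.0132). Dnajc10, another HSP40 of the reticulum, had 51.6, 53.6 and 83.2 CPM, against 51.6, 80.4 and 66.4 CPM, and did not pass (-0.08 ± 0.31, edgeR adjusted p = 0.862), nor did Dnajc3 (-0.42 ± 0.34, edgeR adjusted p = 0.373). No values of the 4 called genes overlapped, but Dnaja1 and Dnajb4 lost their calls without replicate 1 and without replicate 3. Summed over the 18 genes, the HSP40 list stood at 1527, 1259 and 1412 CPM, against 1145, 1340 and 1265 CPM, so the sums overlapped.

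Of exchange factors and heat shock factors, 10 of 14 were tested, 3 were higher and 0 lower (1 higher without replicate 1 or without replicate 3), with a median of 0.46. Bag6, which holds stray membrane proteins for degradation, had the largest log2 difference, at 130.0, 107.2 and 147.0 CPM in Hspa8-high nuclei, against 37.0, 26.8 and 28.4 CPM (1.95 ± 0.31, edgeR adjusted p = 0.000646). The heat shock factor Hsf2 had 38.1, 53.6 and 47.2 CPM, against 63.9, 58.1 and 42.0 CPM, with overlapping values and an edgeR adjusted p of 0.42. Over all 5 chaperone lists, 58 of 76 genes were tested, 21 were higher, 2 lower, and the median log2 difference was 0.27. Of all genes tested, 17.7% were higher and 13% lower. The 21 became 13 without replicate 1, 25 without replicate 2 and 10 without replicate 3.

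**Figure D3:**
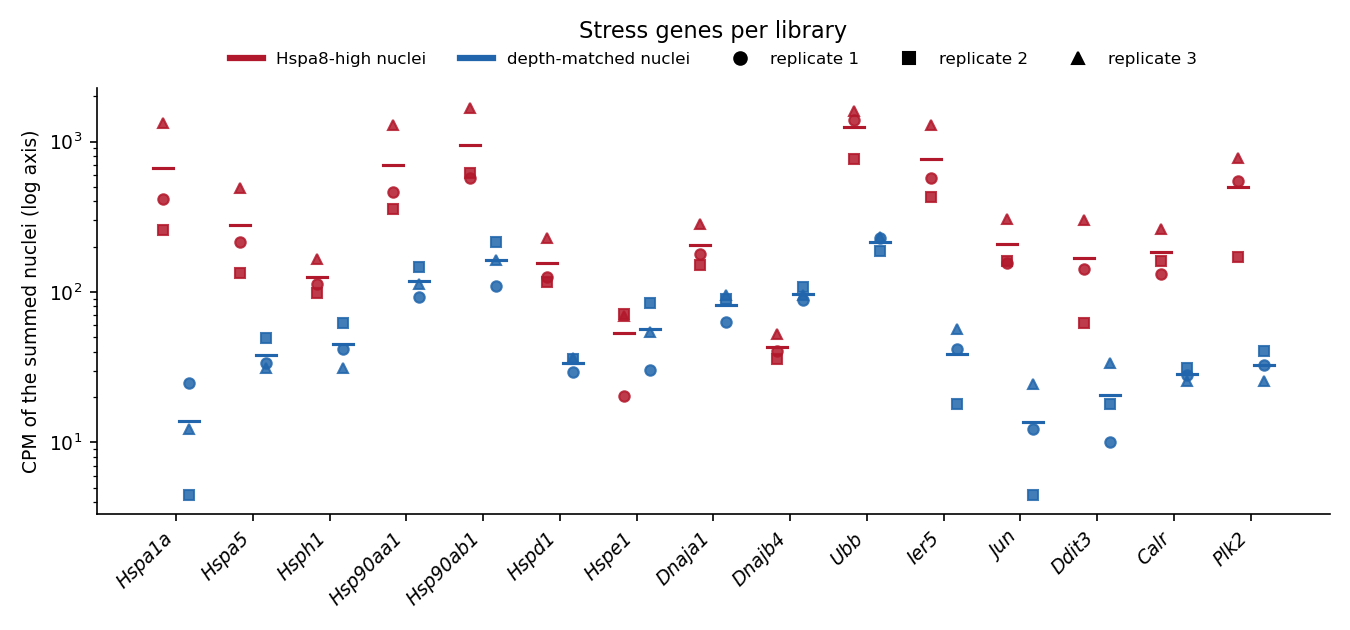
Levels of 15 stress genes (CPM of the summed nuclei, log axis) in Hspa8-high nuclei and in depth-matched nuclei, with 1 point per library (n = 3) and a bar at the mean. Hspe1 overlapped between the sides and Dnajb4 was lower in the Hspa8-high nuclei, while the other 13 genes lay higher in every library.

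A heat shock element pair was counted as GAANNTTC or TTCNNGAA, each of which is its own reverse complement, on either strand, and a triple was 3 such alternating units in a row. A pair occurred in 15.1% of all 32851 promoter windows. Other shares count genes with a match in any of their windows, and are not the same measure. By gene, a pair occurred in 13.9% of 1081 higher genes, 16.3% of 724 lower genes and 13.6% of all 6060 tested genes with a window. Among chaperone genes with a window, 9 of 17 that were higher and 8 of 30 that were not held a pair. A triple was in 0.603% of all windows. By gene, it was in 0.644% of the genes tested, in 2 of the 17 and in 3 of the 30. These are matches of letters and nothing was measured on the promoters.

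Most genes of the ubiquitin and proteasome list did not pass the test. The list had 35 of 37 genes tested, 7 higher, 2 lower and a median log2 difference of 0.15. Over all genes tested, 17.7% were higher and 13% lower. The list had 3 higher without replicate 1, 2 higher without replicate 3, and 6 lower without replicate 2. Ubb, a stress-inducible polyubiquitin gene, had 1385, 768.0 and 1606 CPM in Hspa8-high nuclei, against 228.8, 187.6 and 230.3 CPM (2.39 ± 0.35, edgeR adjusted p = 0.000372). All 3 Hspa8-high values lay above the depth-matched range.

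In the unfolded protein response list, 18 of 24 genes were tested, 7 were higher, 0 lower, and the median was 0.69. Atf3, a transcription factor induced by many stresses, had 179.3, 44.7 and 177.6 CPM in Hspa8-high nuclei, against 13.5, 0 and 0 CPM (4.63 ± 0.56, edgeR adjusted p = 0.000117). Ppp1r15a, the phosphatase subunit that restores translation, had 118.8, 44.7 and 155.4 CPM, against 4.49, 13.4 and 8.13 CPM (3.92 ± 0.46, edgeR adjusted p = 9.2e-05). Ddit3, which encodes CHOP, had 141.2, 62.5 and 302.4 CPM, against 10.1, 17.9 and 33.9 CPM (3.09 ± 0.37, edgeR adjusted p = 0.000112). The sides did not overlap in any of the 3, and replicate 2 was lowest each time, on 5, 5 and 7 UMIs in its Hspa8-high nuclei. Calr, the lectin chaperone calreticulin, had 132.3, 160.7 and 263.6 CPM, against 28.0, 31.3 and 25.7 CPM (2.59 ± 0.34, edgeR adjusted p = 0.000182).

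Immediate early genes, which are transcribed within minutes of a stimulus, had 18 of 31 genes tested, 15 higher, 0 lower and a median of 2.72. Ier5, which binds heat shock factor 1, had 573.9, 428.6 and 1279 CPM in Hspa8-high nuclei, against 41.5, 17.9 and 56.9 CPM (4.11 ± 0.36, edgeR adjusted p = 2.29e-05). Jun, a component of the AP-1 transcription factor, had 154.7, 160.7 and 305.2 CPM, against 12.3, 4.47 and 24.4 CPM (3.67 ± 0.35, edgeR adjusted p = 2.74e-05). Fosb, its partner, had 40.4, 44.7 and 66.6 CPM, against 3.37, 4.47 and 1.35 CPM (4.00 ± 0.56, edgeR adjusted p = 0.000282). All 3 lay above the depth-matched range in each library, though Fosb rested on 5 UMIs in the Hspa8-high nuclei of replicate 2.

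Of p53 target genes, 11 of 22 were tested, 7 were higher, 0 lower, and the median was 1.62, with 4 of 9 higher without replicate 1 and 3 of 9 without replicate 3. Plk2, a stress-induced polo-like kinase, had 547.0, 169.7 and 771.3 CPM in Hspa8-high nuclei, against 32.5, 40.2 and 25.7 CPM (3.84 ± 0.46, edgeR adjusted p = 0.000117). Cdkn1a, the cell cycle inhibitor p21, had 60.5, 26.8 and 99.9 CPM, against 6.73, 0 and 2.71 CPM (3.90 ± 0.52, edgeR adjusted p = 0.000227). Its value in the Hspa8-high nuclei of replicate 2 rested on 3 UMIs. Oxidative stress genes had 10 of 17 tested, 6 higher and 0 lower (median 1.00), but 2 of 8 without replicate 1 and 0 of 8 without replicate 3. Axon injury genes had 10 of 14 tested and 3 higher (median 0.35): the protease Ecel1 (1.70 ± 0.37, edgeR adjusted p = 0.00503), the stathmin Stmn4 (1.64 ± 0.31, edgeR adjusted p = 0.00247) and the transcription factor Sox11 (1.39 ± 0.34, edgeR adjusted p = 0.00866), which lost its call without replicate 1. Atf3 also serves as an axon injury marker in sensory neurons. The 3 of 10 axon injury genes stand beside a share of 17.7% called higher over all genes tested. Summed, the axon injury list stood at 1282, 1652 and 1629 CPM, against 1393, 1451 and 1655 CPM, with overlapping sums.

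**Figure D4:**
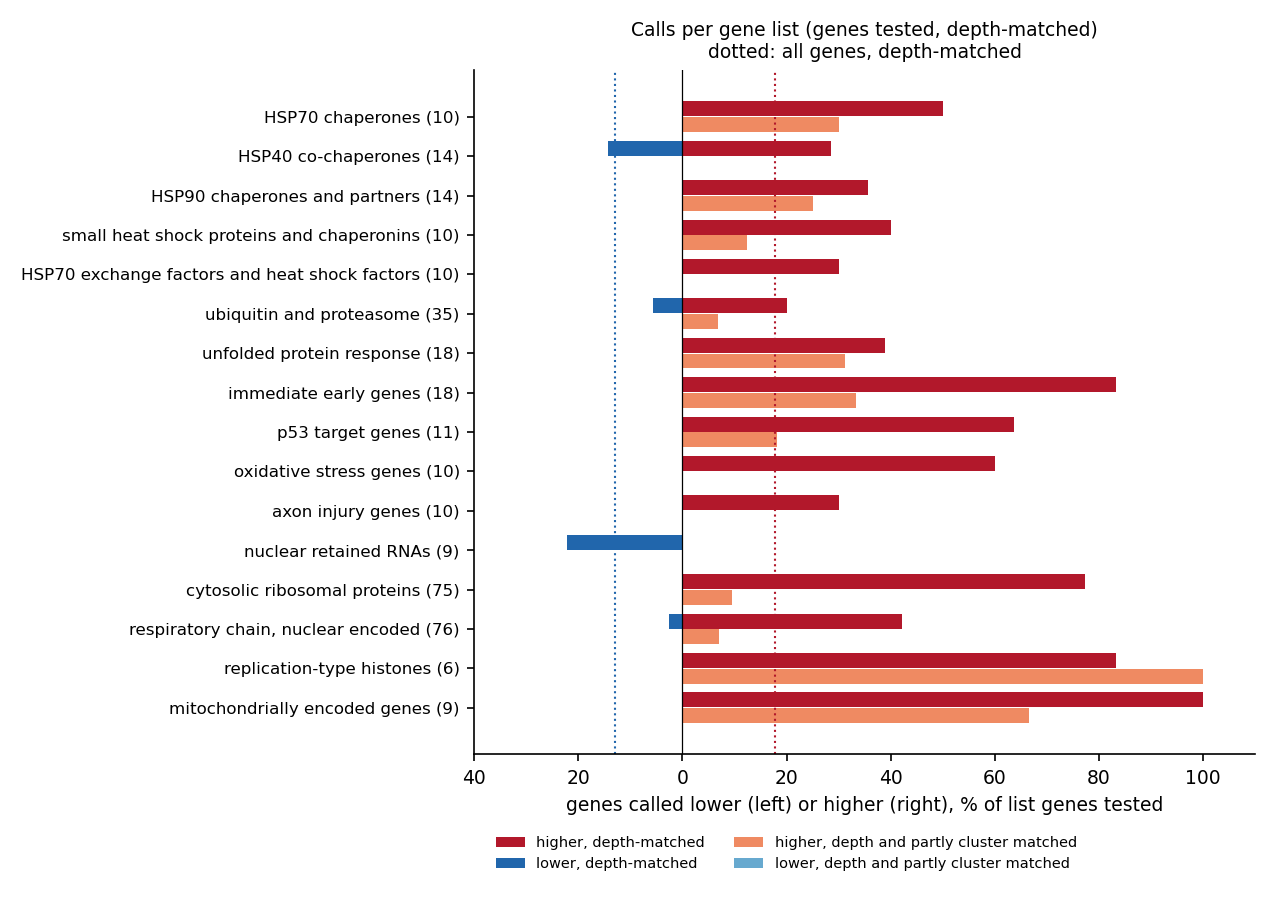
Share of the tested genes of each list called higher (right) or lower (left) in Hspa8-high nuclei (percent, horizontal axis), beside depth-matched nuclei (dark bars) and beside nuclei partly matched on depth and cluster (light bars). Dotted lines mark the 17.7% and 13% called over all genes in the depth-matched comparison, where immediate early genes reached 15 of 18 and HSP40 co-chaperones split 4 higher and 2 lower.

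Many genes whose RNAs work in the cytoplasm or mitochondria were higher. Cytosolic ribosomal protein genes had 75 of 82 tested, 58 higher and 0 lower (median 1.17). Without replicate 1, 10 of 74 were higher, and without replicate 3, 14 of 74 were. Over all genes, 506 of 6677 and 475 of 7026 were higher in those fits. Nuclear-encoded respiratory chain genes had 76 of 87 tested, 32 higher and 2 lower (median 0.83), and 1 and 5 higher without those libraries. All 9 tested of the 13 mitochondrially encoded genes were higher (median 2.51; 6 of 6 without replicate 1 and 5 of 6 without replicate 3). Among them mt-Atp6, a subunit of ATP synthase, had 177.1, 62.5 and 255.3 CPM in Hspa8-high nuclei, against 24.7, 8.93 and 19.0 CPM (3.12 ± 0.35, edgeR adjusted p = 7.72e-05). The median mitochondrial share per nucleus was 0.135%, 0.0498% and 0.201%, against 0.0233%, 0.0188% and 0.0198%. Of 9 nuclear retained RNAs tested, 0 were higher and 2 were lower: the imprinted transcripts Snhg14, at 284.7, 750.1 and 349.6 CPM, against 1248, 928.9 and 1139 CPM, and Kcnq1ot1, at 168.1, 276.8 and 130.4 CPM, against 447.5, 437.7 and 382.0 CPM. Both lost their calls without replicate 1 and without replicate 3. Summed over 10 such RNAs the sides overlapped, at 82160, 118700 and 101300 CPM, against 112700, 154100 and 115900 CPM.

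Because cytosolic RNA moved with the group, its share was matched as well. With comparison nuclei matched on library, depth and the share of ribosomal protein and mitochondrial UMIs, 1058 of 8109 genes were higher (13%) and 668 lower (8.24%), and the 5 chaperone lists had 18 of 57 higher and 1 lower. The match was partial, with a median share of 0.794%, 0.703% and 1.24% in Hspa8-high nuclei, against 0.473%, 0.681% and 0.582% in the comparison nuclei. Hspa1b differed by 4.10, Hsp90aa1 by 1.95 and Ubb by 2.01 on the log2 scale in that comparison, and all 3 passed the test. The part of cytosolic RNA in the chaperone differences was not tested beyond this match.

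Genes of the replication-type histone list were also higher. Most cells transcribe such genes while copying their DNA, but this need not hold for each listed gene, and DNA copying was not measured. Only 6 of the 67 genes of the list were abundant enough to be tested, and 5 of the 6 were higher. The listed gene Hist2h2be had 872.1, 44.7 and 527.2 CPM in Hspa8-high nuclei, against 22.4, 0 and 24.4 CPM (4.80 ± 0.41, edgeR adjusted p = 2.29e-05). Summed over the 67 genes, histones stood at 5353, 419.7 and 3157 CPM, against 273.6, 125.1 and 234.3 CPM. The sums did not overlap, and replicate 2 was far below the other 2 libraries.

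Some of the largest differences rested mostly on the UMIs of a few nuclei. Nup214, a nuclear pore protein, had 5232, 80.4 and 2461 CPM in Hspa8-high nuclei, against 85.2, 31.3 and 25.7 CPM (5.30 ± 0.80, edgeR adjusted p = 0.000457), but 5 nuclei held 86.4% of its UMIs, 1 nucleus held 973, and replicate 2 overlapped the depth-matched range. It was also found in more nuclei, in 36.1%, 14.3% and 28.4% of Hspa8-high nuclei thinned to 2000 UMIs, against 10.9%, 2.38% and 6.17%. Txk, a kinase of the Tec family, had 166 UMIs, against 2 in the depth-matched nuclei, 167.5 times as much per UMI (95% interval from counting alone, 45.65 to 1395), and 5 nuclei held 81.3% of them. Tfcp2l1, a transcription factor, was spread more widely, with 190.6, 44.7 and 177.6 CPM, against 5.61, 0 and 4.06 CPM (5.12 ± 0.42, edgeR adjusted p = 2.29e-05), and its 5 richest nuclei held 17.5%.

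The genes with the largest falls included some known from neurons. Samd5 had 13.5, 26.8 and 25.0 CPM in Hspa8-high nuclei, against 123.4, 84.9 and 128.7 CPM (-2.65 ± 0.38, edgeR adjusted p = 0.000307). Shisa6, an auxiliary protein of AMPA receptors, had 17.9, 44.7 and 25.0 CPM, against 115.5, 89.3 and 155.8 CPM (-2.41 ± 0.38, edgeR adjusted p = 0.00058). Nnat, a neuronal proteolipid, had 38.1, 53.6 and 36.1 CPM, against 102.1, 406.4 and 220.8 CPM (-2.35 ± 0.36, edgeR adjusted p = 0.00047). The values did not overlap in any of the 3. By annotation, the 1018 genes that fell spanned a median of 96.7 kb, the 1386 that rose 26.2 kb, and all genes tested 43.1 kb.

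Neuron markers were detected at lower levels. Summed over 5 neuron markers, the Hspa8-high nuclei had 2715, 4518 and 2650 CPM, against 6570, 6480 and 5423 CPM, and barcodes outside the limits on genes and mitochondrial UMIs had 3470, 6817 and 6378 CPM. The splicing factor Rbfox1, the synaptic calcium sensor Syt1 and the microtubule protein Map2 were lower under edgeR, and Snap25, a vesicle fusion protein, was not called, at 605.3, 964.4 and 618.7 CPM, against 722.3, 978.1 and 853.3 CPM. Of other cell types, 5 oligodendrocyte markers summed to 71.7, 80.4 and 83.2 CPM, against 41.5, 558.3 and 235.7 CPM. Astrocyte markers summed to 107.6, 62.5 and 124.9 CPM, against 42.6, 71.5 and 150.3 CPM, and microglial markers to 105.4, 142.9 and 124.9 CPM, against 126.7, 102.7 and 142.2 CPM. Endothelial markers summed to 188.3, 80.4 and 202.5 CPM, against 76.3, 40.2 and 84.0 CPM. The endothelial sum was higher in the Hspa8-high nuclei of each library, while the other 3 sums went different ways in different libraries, and among the microglial markers Cx3cr1 was higher and P2ry12 lower. Red nucleus markers summed to 74.0, 142.9 and 124.9 CPM, against 40.4, 17.9 and 43.3 CPM, and inhibitory neuron markers to 65.0, 53.6 and 41.6 CPM, against 23.6, 0 and 14.9 CPM, higher in every library with no overlap. Pericyte or fibroblast markers summed to 31.4, 0 and 141.5 CPM, against 6.73, 0 and 6.77 CPM. These sums are low, 16 to 45 UMIs for red nucleus and 6 to 29 UMIs for inhibitory markers in the Hspa8-high nuclei of a library. Corticospinal, red nucleus and paraventricular hypothalamus markers had 0 calls among 5, 1 and 2 tested, while 2 of 3 hindbrain and 1 of 3 lateral hypothalamus markers were lower. The part of cell type in the differences was not tested beyond the partial match on clusters below.

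With comparison nuclei drawn from the same clusters, the differences called were fewer, but this match was partial, since the clusters held too few other nuclei. Median depths were 3309, 5959 and 4458 UMIs in the Hspa8-high nuclei, against 4420.5, 5778 and 4878 UMIs in the 84, 38 and 46 comparison nuclei. Cluster 14 held 69.8%, 19.0% and 72.8% of the Hspa8-high nuclei, against 21.4%, 10.5% and 28.3% of the comparison nuclei. Under this match 121 of 6827 genes were higher (1.77%) and 57 lower (0.835%), and 116 of the 121 and 41 of the 57 had been called in the same direction above. Hsp90ab1 kept its call, at 569.4, 616.1 and 1681 CPM in Hspa8-high nuclei, against 245.0, 220.5 and 415.6 CPM in cluster-matched nuclei (1.53 ± 0.26, edgeR adjusted p = 0.00702). Hspa1b (2.90 ± 0.44, edgeR adjusted p = 0.00384), Hsp90aa1 (1.38 ± 0.30, edgeR adjusted p = 0.0285), Hspd1 (1.53 ± 0.32, edgeR adjusted p = 0.0211), Ubb (1.60 ± 0.25, edgeR adjusted p = 0.00452) and Ier5 (2.29 ± 0.32, edgeR adjusted p = 0.00248) kept theirs. Hsph1 (0.56 ± 0.31), Bag6 (0.99 ± 0.33) and Dnaja3 (0.71 ± 0.30) did not pass, with edgeR adjusted p of 0.315, 0.111 and 0.195. In this comparison 7 of 52 chaperone genes, 5 of 15 immediate early genes, 7 of 74 ribosomal protein genes and all 5 tested histone genes were higher, and 0 of these were lower. Nuclei of cluster 14 that were not Hspa8-high, at any depth, also carried such transcripts. Nuclei of 600 CPM or more of Hspa8 with fewer than 3 UMIs were not left out of this group. Its own Hspa8 stood at 538.0, 388.9 and 393.7 CPM, above the 91.6, 101.2 and 83.7 CPM of all nuclei kept. Its histone genes summed to 5044, 318.2 and 3321 CPM, against 8650, 2291 and 4690 CPM in the cluster's Hspa8-high nuclei. Immediate early genes summed to 3497, 1131 and 4040 CPM, against 3477, 5112 and 6508 CPM. In replicate 2 the former sums rested on 9 and 32 UMIs.

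Hspa8-high nuclei outside clusters 13 and 14 had little of Hspa1a and Gadd45b. In these 44 nuclei Hspa8 stood at 1055, 810.5 and 707.2 CPM, and Hspa1a at 0, 25.9 and 0 CPM, against 381.5, 528.8 and 1249 CPM in the Hspa8-high nuclei of cluster 14 and 487.4, 594.0 and 1791 CPM in those of cluster 13. Gadd45b stood at 0, 6.48 and 15.1 CPM outside the pair, against 717.2, 1028 and 1666 CPM in cluster 14 and 388.7, 405.9 and 1113 CPM in cluster 13. Ccnb1ip1 divided the pair itself, with 10480, 5435 and 6522 CPM in cluster 14 and 1189, 188.1 and 527.1 CPM in cluster 13. Several list sums stood higher outside the pair than in the depth-matched nuclei of each library. The 5 chaperone lists together summed to 3399, 4267 and 3551 CPM, against 3006, 3890 and 3419 CPM. Within them, the HSP90 and HSP40 sums went different ways in different libraries. Ubiquitin and proteasome genes summed to 3751, 3411 and 3009 CPM, against 2277, 2671 and 2571 CPM. Respiratory chain genes summed to 6798, 8177 and 6154 CPM, against 4036, 6141 and 5228 CPM, and ribosomal protein genes to 4337, 6465 and 6425 CPM, against 3163, 4689 and 4760 CPM. These 44 nuclei include depths beyond the matched range. When the 34 such nuclei of 2000 to 8000 UMIs were set against their own depth-matched nuclei, edgeR called 0 of 1249 genes tested higher and 0 lower, with 49 and 59 at an unadjusted p under 0.05. These nuclei were few, 6, 16 and 12 in replicates 1, 2 and 3, which limits what could be called.

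Levels of Hspa1a climbed with the level of Hspa8 up to 2000 CPM, over ranges not matched on depth or library. Median depth was 5364 UMIs where Hspa8 was 0 and 3309 UMIs above 2000 CPM. Replicate 2 gave 7 of the 104 nuclei from 1000 to 2000 CPM and 3 of the 59 above. Over nuclei of 2000 to 8000 UMIs pooled across libraries, Hspa1a stood at 6.09 CPM where Hspa8 was 0, at 11.7 CPM up to 200 CPM of Hspa8, at 22.3 CPM from 200 to 400, at 63.2 CPM from 400 to 600, at 188.0 CPM from 600 to 1000, at 1057 CPM from 1000 to 2000 and at 961.8 CPM above 2000. The share of nuclei in clusters 13 and 14 over the same 7 ranges was 2.76%, 2.95%, 7.37%, 19.9%, 58.6%, 91.4% and 98.3%. Replicate 2 departed from the others in the range from 600 to 1000 CPM, where its 11 nuclei had 15.0 CPM of Hspa1a, 0 CPM of Ccnb1ip1 and 0% in clusters 13 and 14, and its 3 nuclei above 2000 CPM had 566.9 CPM of Hspa1a. The HSP40 sum moved far less over the 7 ranges, between 1114 and 1554 CPM.

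**Figure D5:**
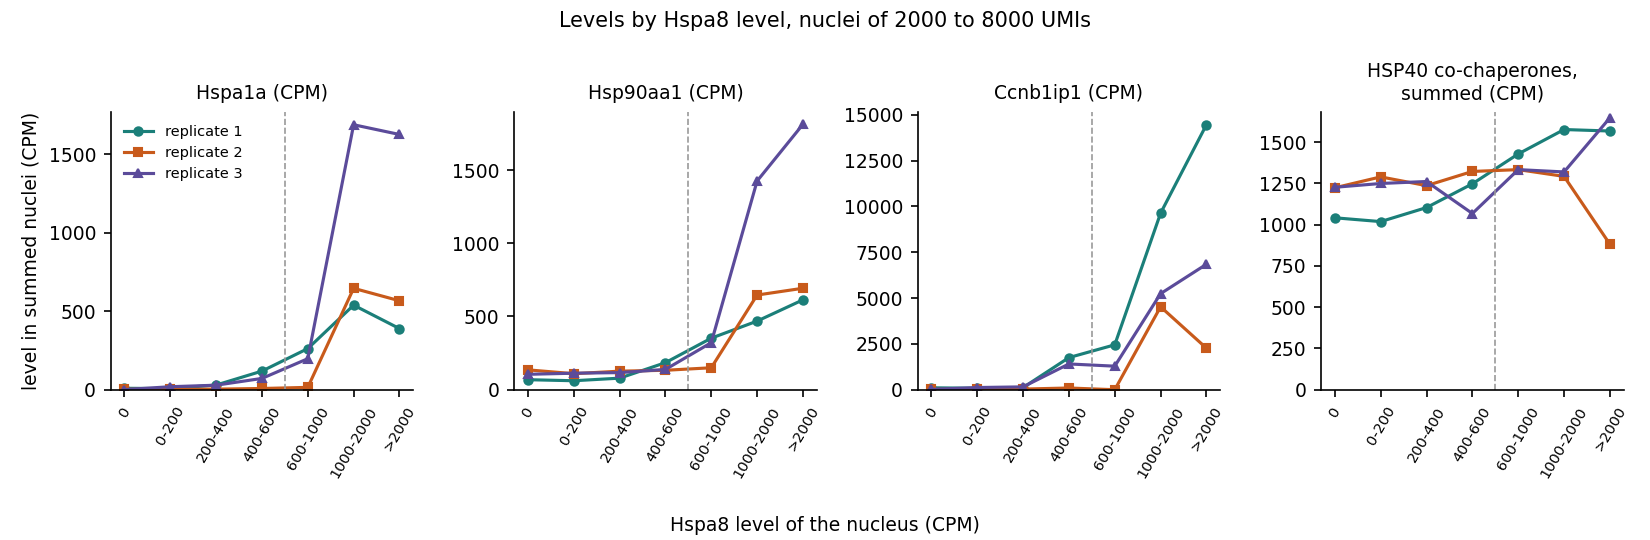
Levels of Hspa1a, Hsp90aa1, Ccnb1ip1 and the summed HSP40 list (CPM of the summed nuclei, vertical axes) in 7 ranges of Hspa8 level per nucleus (horizontal axis), 1 line per library, nuclei of 2000 to 8000 UMIs, with a dashed line at 600 CPM of Hspa8. Replicate 3 reached 1689 CPM of Hspa1a between 1000 and 2000 CPM of Hspa8, while replicate 2 stayed at 15.0 CPM from 600 to 1000.

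The nuclei were also richer in distinct genes. Thinned to 2000 UMIs, the median Hspa8-high nucleus showed 1373, 1333 and 1442 genes, against 1225, 1251.5 and 1275.5 genes in depth-matched nuclei, higher in 3 of 3 libraries.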

How the data were processed

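Single-nucleus RNA sequencing (10x Genomics) of 3 mouse brain libraries was analysed. The authors deposited raw UMI counts for 32285 genes in 17517 barcodes, produced by Cell Ranger. The submitters' processing notes name version 7.0.1 and the build mm10, and the file headers name version 6.1.1. Whether introns or strand were used in counting is not given in the sources used here. Whether reads of overlapping and antisense genes were kept apart is therefore not known here. If introns were counted, long genes gain UMIs.

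Barcodes with fewer than 1000 genes or more than 5% mitochondrial UMIs were dropped. The rule for Hspa8-high nuclei, their marker genes and all gene lists were chosen with earlier results of these data known. Scrublet (expected rate 6%) called doublets, which were kept in the main comparison. Leiden clustering (scanpy 1.11.5, leidenalg 0.10.2, 2000 variable genes, 30 components, 20 neighbours, resolution 1) left out Hspa8, the listed genes and mitochondrial genes.

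Each Hspa8-high nucleus of 2000 to 8000 UMIs was matched to 2 others of its library, nearest in UMIs without Hspa8. Summed counts were tested in edgeR 4.0.16 (R 4.3.3; TMM, filterByExpr, quasi-likelihood test, library as a block, 2 residual degrees of freedom), with Benjamini-Hochberg adjustment over all genes tested. DESeq2 1.42.0 was an alternative. The fits were tested on simulated counts. The block is sound because both sums come from 1 library. CPM values are scaled to 1000000 UMIs of the summed nuclei, and shares have exact Clopper-Pearson 95% intervals that cover counting error only. Where a list symbol had more than 1 gene ID, the ID with more UMIs was used. Genes named in the text were those reported with the group, the called genes of each list (where more than 4, the 4 largest differences), chaperones at 50 CPM or more, and the 12 called genes at either extreme that moved alike in every library, leaving out predicted genes. Not all are printed, and the results of some genes are not reported here. Promoters came from RefSeq (GRCm38.p6) and gene spans from GENCODE (GRCm38).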

Additional observations from a re-analysis of the deposited data

Results flagged for a closer look

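Barcodes outside the limits on genes and mitochondrial UMIs, which enter no comparison, also carried Hspa8. Summed per library, it stood at 860.2, 1052 and 884.9 CPM in replicates 1, 2 and 3 (30, 6197 and 77 UMIs over 31, 8325 and 134 barcodes), above the 91.6, 101.2 and 83.7 CPM of all nuclei kept. In replicate 2, 8324 of the 8325 such barcodes had fewer than 1000 genes. In the barcodes outside the limits Hspa1a stood at 344.1, 16.0 and 34.5 CPM, against 414.7, 259.0 and 1337 CPM in Hspa8-high nuclei of replicates 1, 2 and 3. Ccnb1ip1 stood at 2523, 28.7 and 1264 CPM, against 8411, 1509 and 4789 CPM, and Hist1h2bm at 1147, 17.7 and 57.5 CPM, against 1809, 80.4 and 1052 CPM. Replicate 1 was thus nearer to its Hspa8-high nuclei than replicate 2, on 12 UMIs of Hspa1a. Ribosomal protein genes in these barcodes summed to 5821, 17160 and 20850 CPM, against 9456, 7108 and 12280 CPM in the Hspa8-high nuclei. The part of such RNA in the Hspa8 level of nuclei was not tested.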

How the results depend on the processing

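The share of Hspa8-high nuclei, averaged over libraries, was 3.24% ± 1.96 (SD, n = 3) and moved to 8.90% ± 3.29 among nuclei of 2000 to 8000 UMIs. With 1 library left out it ranged from 2.17% to 4.10%, and the other alternatives stayed within 1 SD. The counts of higher and lower genes (1386 and 1018) were 1449 and 1022 with DESeq2 size factors in edgeR, 590 and 301 with DESeq2's Wald test, 2505 and 1417 with no filter, 2454 and 1833 without matching, 840 and 654 at 3000 to 6000 UMIs, 2543 and 2075 with no depth limits, 1538 and 1366 at 1000 CPM of Hspa8 or more, 1390 and 1027 without doublets, and 121 and 57 with partial cluster matching. With 1 library left out the counts ranged from 475 to 2568 and from 105 to 2150. Matching on ribosomal protein and mitochondrial UMIs gave 1058 and 668, and nuclei outside clusters 13 and 14 gave 0 and 0 in edgeR (49 and 59 at an unadjusted p under 0.05). Both of these were chosen after seeing the data. Fewer genes and nuclei enter several of these settings, and other causes were not tested. Without the library as a replicate block the counts were 1252 and 854. Outside clusters 13 and 14, Snhg14 differed by 0.01988 on the log2 scale, the opposite sign to its main value of -1.52. Only 11 of the 106 genes named by the rule had a value there, and 95, 106 and 94 had one without replicate 1, 2 and 3. No other reversal was found where a value existed. With 21 Hspa8-high nuclei, replicate 2 limits the precision most.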
